A study of Mus musculus with 3 samples.

Results

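The cells described here were chosen by transcript counts, rather than by a sort, as capillary endothelial cells of the mouse infrapatellar fat pad and synovium. The choice also took in some cells with lymphatic or pericyte markers, and the cells at 1 week nearly lacked 2 capillary markers, as given below. Barcodes were kept when 500 or more genes were detected and mitochondrial transcripts made up no more than 10% of UMIs (unique molecular identifiers, 1 per captured transcript), and 3241 of the 30197 kept barcodes passed an endothelial gate. That gate asked for at least 3 UMIs of Cdh5 and Pecam1 together, no UMI of the leukocyte gene Ptprc, and less than 0.2% of UMIs from the fibroblast genes Col1a2, Col3a1 and Dcn. Of these, 632 had at least 4 UMIs of Gpihbp1 and Rbp7 together, fewer than 4 of the venular genes Selp and Ackr1, and fewer than 3 of the arterial genes Gkn3, Sema3g and Gja5. They were 226 cells at 1 week, 157 cells at 2 months and 249 cells in the control.

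Each group was 1 droplet-based 10x Genomics library of live-sorted knee cells from wild-type mice, pooled from 5 to 10 animals. The mice of the 1-week and 2-month libraries were operated on at 2 months of age, with the medial meniscus of the knee destabilised (DMM) to start post-traumatic osteoarthritis, and were taken 1 week or 2 months later. Control mice were taken at 2 months of age, so the 2-month library also came from older mice, and age and surgery cannot be told apart there. The tissue went through 0.25% trypsin (30 min) and then type I collagenase (300 U/mL, 30 min), and only cells of the second digest were loaded. The sources used here do not give the sex of the mice, a sham group or the hour of collection. The series asked how the cells of this joint lining differ over the course of the disease model. Because each group is a single library, groups were not tested against each other: intervals are 95% intervals for counting error only, and do not cover the spread between mice.

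Capillaries of fat differ from other capillaries in the way they pass lipid to the tissue. GPIHBP1, a membrane protein of capillary endothelium, carries lipoprotein lipase to the vessel lumen, where the lipase frees fatty acids from circulating triglyceride. The fatty acids are taken up with the help of the receptor CD36, bound in the cell by fatty acid-binding proteins such as FABP4, and handed on to adipocytes. RBP7, a small retinol-binding protein of the same superfamily, and FABP4 are known targets of PPARγ in endothelium, and the transcription factors MEOX2 and TCF15 control fatty acid uptake genes in endothelial cells of heart and muscle in the mouse.

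The promoters of the markers that differed together between the libraries are shown first, because the levels of these genes carry most of what follows. Of 6 genes looked up in a RefSeq promoter table (build GRCm38.p6), 4 matched. The 250 bases before the RefSeq start are given 5′ to 3′ on the strand of the gene, with each CACCC (the core bound by Krüppel-like factors, or GGGTG on the other strand) and each AGGTCA (a nuclear receptor half-site, or TGACCT) in capitals. Rbp7 lies at chr4:149454969-149455218 on the minus strand, Cd36 at chr5:17835897-17836146 on the minus strand, Timp4 at chr6:115252206-115252455 on the minus strand and Car4 at chr11:84957504-84957753 on the plus strand.
Rbp7: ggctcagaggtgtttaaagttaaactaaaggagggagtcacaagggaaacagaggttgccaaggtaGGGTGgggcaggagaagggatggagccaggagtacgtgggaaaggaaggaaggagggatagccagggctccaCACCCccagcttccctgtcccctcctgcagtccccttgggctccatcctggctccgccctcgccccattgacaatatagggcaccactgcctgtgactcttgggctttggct
Cd36: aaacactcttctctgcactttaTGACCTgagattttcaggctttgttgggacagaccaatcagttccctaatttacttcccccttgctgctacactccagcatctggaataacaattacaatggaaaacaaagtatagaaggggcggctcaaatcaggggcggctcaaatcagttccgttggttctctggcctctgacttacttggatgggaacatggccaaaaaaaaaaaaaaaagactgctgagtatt
Timp4: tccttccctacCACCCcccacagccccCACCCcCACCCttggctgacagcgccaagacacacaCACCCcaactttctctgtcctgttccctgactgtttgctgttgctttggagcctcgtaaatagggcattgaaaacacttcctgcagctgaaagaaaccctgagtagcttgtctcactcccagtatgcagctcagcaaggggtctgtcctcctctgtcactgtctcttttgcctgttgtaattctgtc
Car4: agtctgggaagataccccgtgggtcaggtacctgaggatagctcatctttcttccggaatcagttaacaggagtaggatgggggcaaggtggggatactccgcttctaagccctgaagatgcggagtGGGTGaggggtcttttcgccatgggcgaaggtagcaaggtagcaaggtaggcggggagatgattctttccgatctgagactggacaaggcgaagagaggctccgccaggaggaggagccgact
CACCC was found 2 times for Rbp7, 4 times for Timp4, 1 time for Car4 and 0 times for Cd36, and AGGTCA 1 time, for Cd36. Of the 32851 promoters in the table, 52.0% held CACCC and 14.0% held AGGTCA on either strand in a window of the same length, so these matches are a description of the letters. The Cd36 start used by RefSeq lies within the longer span that the GENCODE annotation gives the gene (chromosome 5, 17781690 to 17888801). In the same annotation Gpihbp1 spans chr15:75596628-75599481 on the plus strand and Fabp4 chr3:10204088-10208576 on the minus strand.

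Depth and foreign RNA differed between the gated cells of the 3 libraries. Members held a median of 12826 UMIs at 1 week, 12127 at 2 months and 5920 in the control, with 3.57%, 3.36% and 1.73% mitochondrial UMIs at 1 week, at 2 months and in the control. Their summed UMIs were 3375043 at 1 week, 2138197 at 2 months and 1892135 in the control. No member's barcode was shared between libraries. Lymphatic endothelial cells entered the gate unevenly: 5 members at 1 week, 24 of 157 at 2 months and 0 in the control held at least 10 UMIs of Prox1, Mmrn1, Flt4, Lyve1 and Pdpn. The 24 cells at 2 months had 3768 CPM (the UMIs of a gene scaled to a common total) of Mmrn1 and only 294 CPM of Fabp4. Some results at 2 months are therefore also given without them, a choice made after seeing the data. All other values at 2 months include them. The mesenchymal list summed to 980 CPM in members at 1 week, 3619 at 2 months and 4894 in the control. Most of it was Prg4, the lubricin gene of synovial lining fibroblasts (636, 3350 and 4782 CPM at 1 week, 2 months and in the control). A second fibroblast list, of genes that may enter as free RNA, went otherwise. Of its 13 measured genes, 5 were at least 2-fold higher at 1 week than in the control (over all genes 7.21%). Another 3, Prg4, Clu and Gsn, were lower (8.88%), and the median log2 ratio was 0.89. With Col1a2, Col3a1 and Dcn under 0.05% of UMIs, 77 members stayed at 1 week, 112 at 2 months and 155 in the control. The adipocyte list of 7 genes summed to 0.889 CPM at 1 week, 115 at 2 months and 226 in the control, and 5 of the 7 were at 0 at 1 week. Pericyte-marked members, with at least 5 UMIs of Rgs5, Kcnj8, Abcc9, Higd1b, Notch3 and Pdgfrb, numbered 4 at 1 week, 34 at 2 months and 21 in the control. The pericyte and smooth muscle list stood at 187, 984 and 892 CPM at 1 week, 2 months and in the control. Haemoglobin stood at 711, 228 and 8049 CPM in the same order. The part of this foreign RNA in the results was not tested.

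The gated cells were a smaller share of the endothelium in both operated libraries. They were 16.97% of gated endothelial cells at 1 week (15.0% to 19.1%, exact Clopper-Pearson interval), 16.92% at 2 months (14.6% to 19.5%) and 25.4% in the control (22.7% to 28.2%). The share at 1 week was 0.668 times that of the control (0.570 to 0.785), and the share at 2 months 0.667 times (0.558 to 0.797). Of all passing cells they were 1.84% at 1 week, 1.61% at 2 months and 3.07% in the control. Arterial cells were also a smaller share, 6.76% at 1 week, 13.8% at 2 months and 22.8% in the control, and venular cells a larger one, 49.2%, 41.1% and 27.3% at 1 week, at 2 months and in the control.

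**Figure D1:**
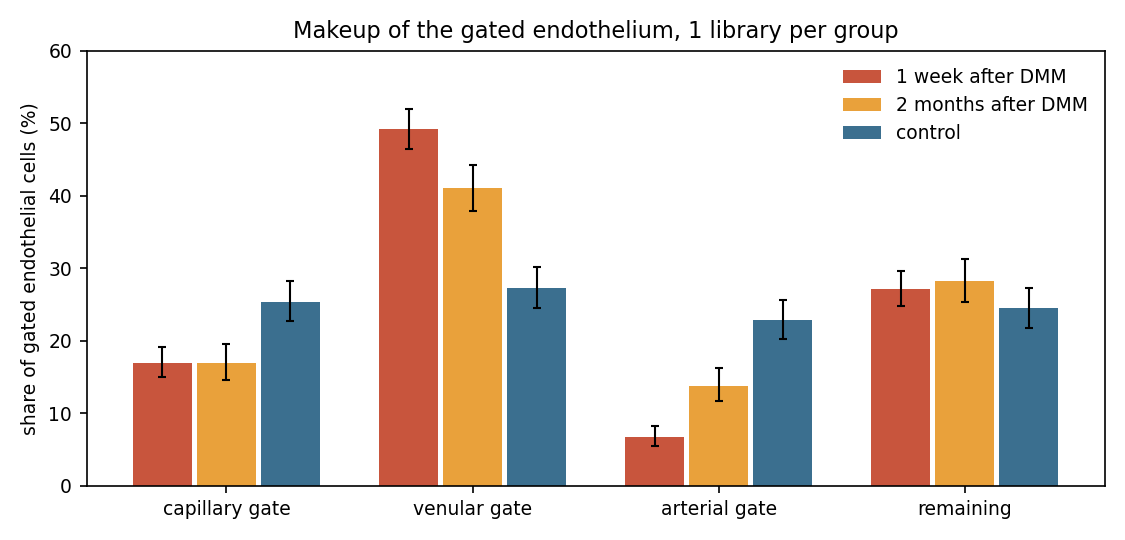
Share of gated endothelial cells (%, vertical axis) in the capillary, venular and arterial gates and among the remaining cells, for 1 week after DMM, 2 months after DMM and control; bars are 1 library each and error lines are exact 95% binomial intervals of counting error. The capillary bars stand at 16.97% and 16.92% in the operated libraries, against 25.4% in the control.

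The size of this gap depended on the gate, which was set on raw UMIs in libraries of unequal depth. When every cell was thinned to 5000 UMIs before gating, the share was 0.442 times that of the control at 1 week and 0.527 times at 2 months. With Gpihbp1 alone (at least 2 UMIs) the 1-week share was 0.938 times the control, and with Rbp7 alone 0.252 times. The shares with Gpihbp1 alone were 22.7% at 1 week (20.5% to 25.1%) and 24.3% in the control (21.6% to 27.1%). Leaving out the lymphatic-marked cells gave 0.654 at 1 week and 0.565 at 2 months. Leaving out the pericyte-marked cells instead gave 0.717 at 1 week and 0.570 at 2 months. All of these ratios were under 1, but they do not give 1 size for the difference. With Gpihbp1 alone the counting intervals of the 1-week and control shares overlapped, so the lower share at 1 week depended on Rbp7 in the gate.

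The genes that chose the members are given as description. Gpihbp1 was found in 223 of 226 members at 1 week, 146 of 157 at 2 months and 228 of 249 in the control. Its summed level was 682 CPM at 1 week, 694 at 2 months and 1421 in the control. Rbp7 was found in 67 of 226 members at 1 week, 104 of 157 at 2 months and 173 of 249 in the control, with 76.4 CPM at 1 week, 367 at 2 months and 801 in the control. At 1 week the gate therefore rested almost wholly on Gpihbp1. Members just inside the cutoff (a sum of 4 UMIs) were 33 at 1 week, 22 at 2 months and 21 in the control, and 39, 12 and 25 cells stood just outside it with a sum of 3. Across this border Fabp4 stood at 3969 CPM inside and 3972 outside at 1 week, 3737 inside and 2588 outside at 2 months, and 8495 inside and 7362 outside in the control. Cd36 at the same border was 189 CPM inside and 174 outside at 1 week, 606 inside and 402 outside at 2 months, and 615 inside and 530 outside in the control.

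Of the markers that the choice did not use, Timp4 and Car4 were nearly absent at 1 week, while Cd36 was found in 162 of 226 members at 1 week, 115 of 157 at 2 months and 226 of 249 in the control. Timp4, an inhibitor of metalloproteinases expressed in adipose capillaries, had 12 UMIs over the 226 cells at 1 week (3.56 CPM, 1.84 to 6.21), against 535 CPM (503 to 569) in the control, 151-fold lower (85.8 to 292). At 2 months it stood at 159.95 CPM, 3.35-fold below the control (2.96 to 3.79), and at 189 CPM without the lymphatic-marked cells. Car4, a carbonic anhydrase anchored to the capillary surface, had 10 UMIs at 1 week (2.96 CPM), against 263 CPM in the control, 88.8-fold lower (47.9 to 186). It stood at 81.8 CPM at 2 months, 3.22-fold below the control (2.70 to 3.84), and at 97.9 CPM without the lymphatic-marked cells. Both genes were thus near 0 at 1 week and intermediate at 2 months.

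Timp4 stood in the same order in endothelial cells that the capillary cutoffs did not pick. It was at 0.261 CPM at 1 week, 2.20 at 2 months and 35.3 in the control in venular cells, and at 1.31, 25.97 and 102 CPM in arterial cells in that order. Car4 was too scarce in these cells for an order: venular cells had 1 UMI at 1 week, 0 at 2 months and 28 in the control, and arterial cells had 0, 4 and 26 UMIs in that order. In the mesenchymal gate, where Timp4 was scarce, it was 0.622 CPM at 1 week, 2.13 at 2 months and 8.35 in the control. Because Timp4 and Car4 were nearly absent at 1 week, the cells of that library are named below by their gate; whether the same capillaries had lost these transcripts or other cells had entered the gate cannot be told apart.

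**Figure D2:**
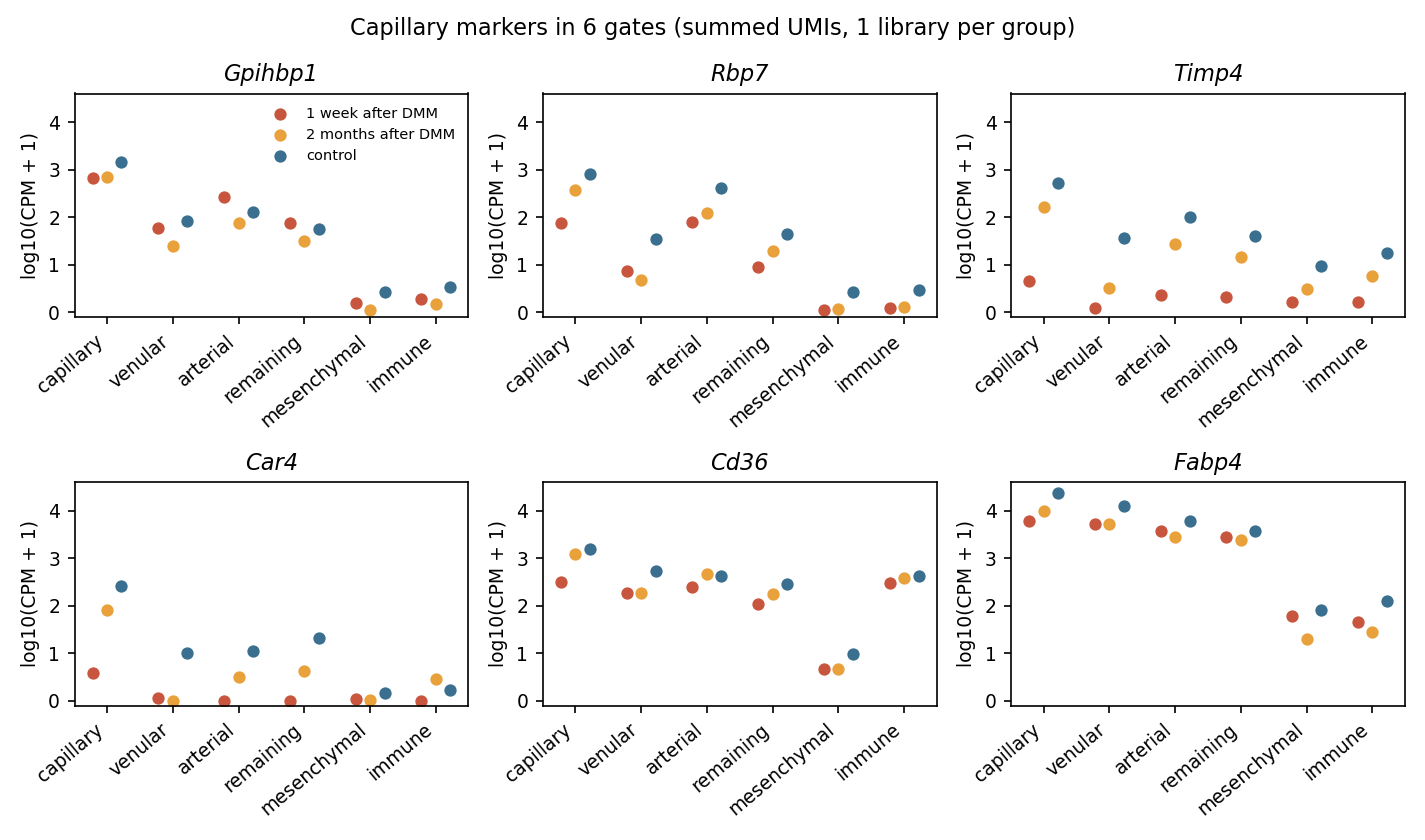
Levels of 6 markers, as log10 of CPM plus 1 (vertical axis), in the capillary, venular, arterial, remaining endothelial, mesenchymal and immune gates, with 1 point per library (1 week after DMM, 2 months after DMM, control). Timp4 and Car4 in the capillary gate stand at 3.56 and 2.96 CPM at 1 week and at 535 and 263 CPM in the control.

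Counted per cell at equal depth, the markers gave the same order. Each member was thinned to 5000 UMIs, which left out 12 of 226 cells at 1 week, 11 of 157 at 2 months and 88 of 249 in the control. Car4 was then found in 0.467% of members at 1 week (0.0118% to 2.58%), 21.9% at 2 months (15.5% to 29.5%) and 44.7% in the control (36.9% to 52.7%), and unthinned in 2.65%, 26.1% and 53.4% of members at 1 week, at 2 months and in the control. Mesenchymal cells, which should lack it, held Car4 in 0.0575%, 0.0244% and 0.291% of cells after the same thinning, from median depths of 15806, 13778 and 12316 UMIs. Timp4 was found in 0.467% of members at 1 week, 30.1% at 2 months and 56.5% in the control, and in 0.211%, 0.536% and 2.58% of thinned mesenchymal cells. Unthinned, Timp4 was found in 2.21%, 42.7% and 64.7% of members in the order 1 week, 2 months, control.

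The lipid receptor and binding genes were found in more of the cells than Timp4 and Car4. Cd36 was found in 52.8% of thinned members at 1 week (45.9% to 59.6%), 68.5% at 2 months (60.3% to 75.9%) and 83.9% in the control (77.2% to 89.2%), against 1.76%, 1.49% and 4.58% of mesenchymal cells. Unthinned, the Cd36 shares of members were 71.7%, 73.2% and 90.8% at 1 week, at 2 months and in the control. Fabp4 was found in 97.2% of thinned members at 1 week, 78.1% at 2 months and 98.1% in the control, with medians of 22, 23 and 105 UMIs per cell. At 2 months its lower quartile was 2.25 UMIs and its upper quartile 97.5 UMIs, against 30 and 185 in the control. Fabp4 RNA was also in 14.2%, 5.82% and 29.4% of thinned mesenchymal cells at 1 week, at 2 months and in the control.

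**Figure D3:**
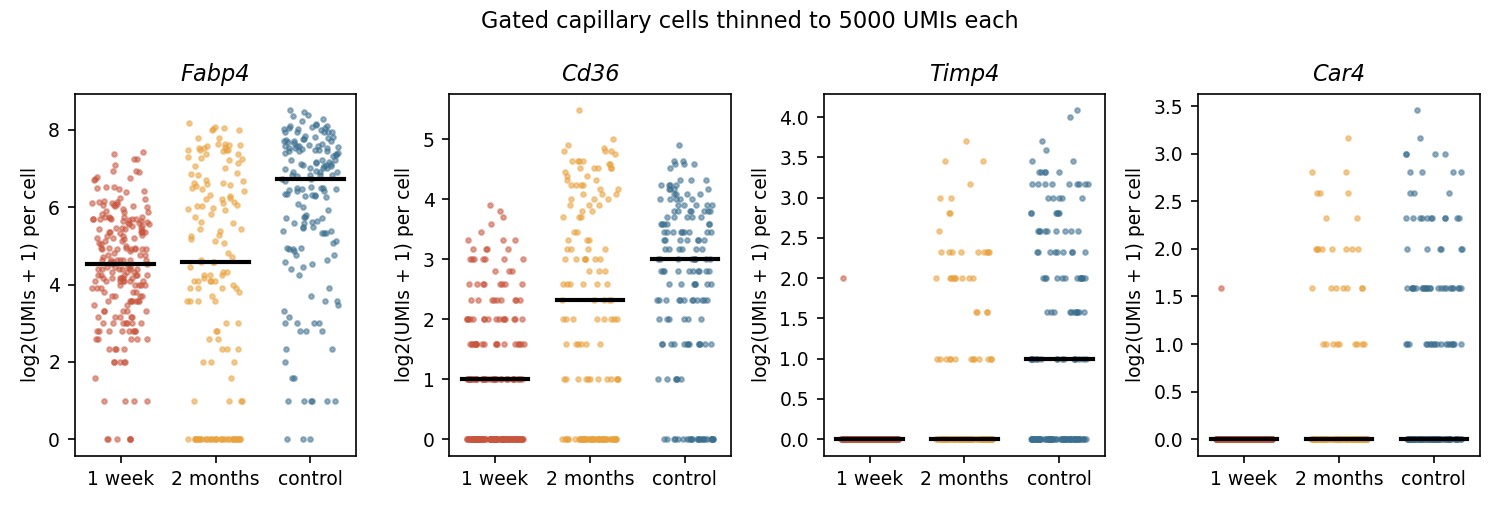
UMIs per gated capillary cell, as log2 of UMIs plus 1 (vertical axis), for Fabp4, Cd36, Timp4 and Car4 after thinning each cell to 5000 UMIs; each point is a cell (214 at 1 week, 146 at 2 months, 161 in the control) and the bar is the median. Fabp4 medians are 22, 23 and 105 UMIs at 1 week, 2 months and in the control, and the 2-month cells run from 0 to 287.

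Expression was next compared over all genes, as raw UMIs summed over the members of a library and given as CPM of that sum, with a gene called at a 2-fold ratio. Of 8388 genes whose sums together reached 50 UMIs, 605 were at least 2-fold higher at 1 week than in the control (7.21%) and 745 at least 2-fold lower (8.88%), with a median log2 ratio of -0.02. Of 7939 genes, 328 were 2-fold higher at 2 months than in the control (4.13%) and 117 lower (1.47%), with a median of 0.05. Without the lymphatic-marked cells the counts at 2 months were 227 and 109, and without the pericyte-marked cells instead 279 and 137. Both comparisons share the control library. Called means only past this ratio, and the calls have no replicate check.

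Genes of lipid uptake and fatty acid handling were lower at 1 week. Of 25 measured genes of this list, 15 were at least 2-fold lower than in the control (over all genes 8.88%) and 1 was higher (7.21%). The median log2 ratio was -1.19, against -0.02 over all genes. At 2 months 5 of 25 were 2-fold lower (over all genes 1.47%) and 1 was higher (4.13%). The median was -0.59, against 0.05 over all genes. That median was -0.43 without the lymphatic-marked cells and -0.15 with the gate set on thinned cells. Cd36 stood at 318 CPM at 1 week, 1238 at 2 months and 1577 in the control, 4.96-fold lower at 1 week (4.62 to 5.32) and 1.27-fold lower at 2 months (1.21 to 1.34). Without the lymphatic-marked cells Cd36 stood at 1459 CPM at 2 months, close to the control level. Fabp4 stood at 6111 CPM at 1 week, 9968 at 2 months and 23213 in the control, 3.80-fold and 2.33-fold lower at 1 week and 2 months, and at 11860 CPM at 2 months without those cells. Its relative Fabp5 behaved otherwise, with 786 CPM at 1 week, 358 at 2 months and 1069 in the control.

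Several further steps of lipid transfer followed Cd36. Lpl, the lipase itself, stood at 13.3 CPM at 1 week, 130 at 2 months and 296 in the control, 22.2-fold lower at 1 week (16.4 to 30.8) and 2.28-fold lower at 2 months (1.97 to 2.65). Lpl was also abundant in mesenchymal cells of the control (172 CPM), and free RNA from them was not tested as a source. Aqp7, a glycerol channel, stood at 10.96 CPM at 1 week, 113 at 2 months and 211 in the control, 19.2-fold and 1.87-fold lower. Scarb1, the receptor for high-density lipoprotein, was 2.40-fold lower at 1 week and 1.14-fold lower at 2 months. Abca1, which exports cholesterol, was the 1 member of the list past 2-fold in the other direction, with 165 CPM at 1 week, 122 at 2 months and 53.4 in the control. Without the lymphatic-marked cells it stood at 83.9 CPM at 2 months, 1.57 times the control and no longer past 2-fold.

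The regulators of this programme were lower too. Tcf15 stood at 30.2 CPM at 1 week, 214 at 2 months and 378 in the control, 12.5-fold lower at 1 week (10.1 to 15.5) and 1.76-fold lower at 2 months. Pparg, the nuclear receptor, stood at 41.8 CPM at 1 week, 74.8 at 2 months and 134 in the control, 3.20-fold and 1.79-fold lower. Meox2 was 2.28-fold lower at 1 week and 1.68-fold lower at 2 months. Angptl4, an inhibitor of lipoprotein lipase, was 2.91-fold lower at 1 week and 3.75-fold lower at 2 months. Without the lymphatic-marked cells it was 3.25-fold lower at 2 months. The enzymes that burn fatty acids in mitochondria did not follow: 0 genes of the fatty acid oxidation list passed 2-fold in either comparison, and its medians were -0.01 and -0.05 at 1 week and 2 months.

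**Figure D4:**
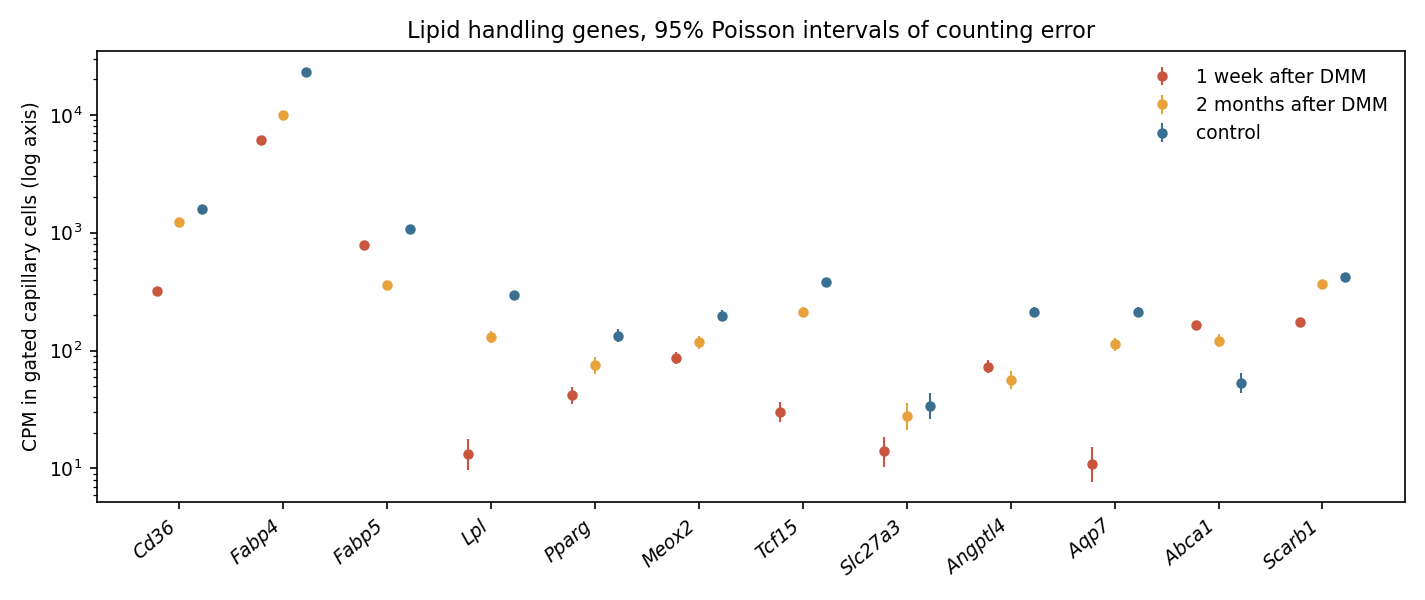
CPM on a log axis (vertical) of 12 lipid handling genes in gated capillary cells, with 1 point per library (1 week after DMM, 2 months after DMM, control) and exact 95% Poisson intervals of counting error. Lpl, Aqp7 and Tcf15 are at 13.3, 10.96 and 30.2 CPM at 1 week, against 296, 211 and 378 CPM in the control, while Abca1 is at 165 CPM at 1 week, against 53.4 CPM in the control.

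Genes of the list were also lower at 1 week in the other endothelial gates. The median log2 ratio at 1 week was -0.54 in venular, -0.24 in arterial and -0.37 in remaining endothelial cells, with 10 of 27, 7 of 23 and 9 of 24 genes 2-fold lower and 2, 3 and 2 genes 2-fold higher. Over all genes, 4.31% were 2-fold lower and 7.81% higher in venular cells, 6.82% lower and 5.66% higher in arterial cells, and 5.66% lower and 6.74% higher in remaining cells. These gates were made by the rule, and the difference between them and the capillary gate was not tested. Fabp4 stood at 5240 CPM at 1 week, 5212 at 2 months and 12545 in the control in venular cells. Cd36 stood at 183, 187 and 530 CPM in venular cells and at 243, 464 and 419 CPM in arterial cells, each in the order 1 week, 2 months, control. Prg4, which endothelial cells should not make, stood in the same order as Cd36, Lpl and Fabp4 in members (values above), and its part was not tested.

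Genes of capillary identity showed the same split between times. Of 28 measured genes of that list, 13 were 2-fold lower (over all genes 8.88%) and 1 was higher (7.21%) at 1 week. The median log2 ratio was -0.93. At 2 months 3 were 2-fold lower (over all genes 1.47%) and 0 were higher (4.13%). The median was -0.35, which was -0.26 without the lymphatic-marked cells and -0.14 in the thinned gate. The list also holds Timp4, Car4, Tcf15 and Meox2, and the 1 higher gene was Tmem252, a transmembrane protein gene, at 172 CPM at 1 week, 12.2 at 2 months and 33.8 in the control. The water channel Aqp1 stood at 166 CPM at 1 week, 873 at 2 months and 1079 in the control, 6.49-fold and 1.24-fold lower. Cd300lg, a sialomucin-like adhesion protein of capillaries, was 3.33-fold lower at 1 week and 1.32-fold lower at 2 months. The receptors of VEGF stood apart at 2 months: Kdr was at 479 CPM at 1 week, 966 at 2 months and 762 in the control, and Flt1 at 573, 1473 and 1072 CPM at 1 week, at 2 months and in the control. Cxcl12, a chemokine that retains leukocytes, was 2.58-fold lower at 1 week and 1.31-fold higher at 2 months. Emcn (677, 519 and 517 CPM) and Plvap (1443, 1382 and 1112 CPM), surface proteins of capillary and venous endothelium, did not pass 2-fold at 1 week or 2 months.

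Genes of caveolae, the membrane pits that carry cargo across the endothelium, were lower in part at 1 week. Of 18 measured genes, 6 were 2-fold lower (over all genes 8.88%) and 0 were higher (7.21%), with a median of -0.22. The coat protein Cavin2 stood at 391 CPM at 1 week, 1306 at 2 months and 1587 in the control, 4.05-fold lower at 1 week, while Cav1, the main structural protein, stood at 1561, 1086 and 1218 CPM at 1 week, at 2 months and in the control. Of 20 junction genes, 5 were 2-fold lower at 1 week (over all genes 8.88%), with a median of -0.49. Among them the adhesion molecules Jam2 and Jam3 were 3.44-fold and 5.21-fold lower at 1 week. The claudin Cldn15 was lower at both times, with 18.7 CPM at 1 week, 23.4 at 2 months and 90.9 in the control. At 2 months it was the only junction gene past 2-fold, and the list median was -0.07.

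Sprouting genes were higher at 1 week. Of 29 measured genes of this list, 10 were 2-fold higher (over all genes 7.21%) and 4 were lower (8.88%). The median log2 ratio was 0.60. At 2 months 1 of 28 was higher (over all genes 4.13%) and 0 were lower (1.47%), with a median of -0.09. Apln, the apelin ligand of tip cells, stood at 120.0 CPM at 1 week, 21.98 at 2 months and 32.8 in the control, 3.66-fold higher at 1 week (2.80 to 4.87). Its receptor Aplnr stood at 332, 149 and 197 CPM at 1 week, at 2 months and in the control, 1.68-fold higher at 1 week. Prnd, a prion-like protein of growing vessels, was 8.49-fold higher at 1 week (6.60 to 11.1) and 2.42-fold higher at 2 months (1.81 to 3.27). The adhesion molecule Mcam was 5.02-fold higher at 1 week. Not every tip marker was higher: Esm1 stood at 119.7 CPM at 1 week, 244 at 2 months and 162 in the control, and the VEGF co-receptor Nrp1 was 2.72-fold lower at 1 week.

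Per cell at equal depth, Aplnr was found in 73.4% of members at 1 week (66.9% to 79.2%), 47.9% at 2 months (39.6% to 56.4%) and 50.3% in the control (42.3% to 58.3%), against 0.268%, 0.122% and 0.145% of mesenchymal cells. Unthinned, the shares of members were 85.4%, 58.6% and 56.6% at 1 week, at 2 months and in the control. Apln was found in 27.6% of thinned members at 1 week (21.7% to 34.1%), 6.85% at 2 months (3.33% to 12.2%) and 9.32% in the control (5.31% to 14.9%). In arterial cells 19 of 30 sprouting genes were 2-fold higher at 1 week and 0 were lower. In venular cells 9 of 27 were higher and 0 were lower. Over all genes 5.66% were higher and 6.82% lower in arterial cells, and 7.81% and 4.31% in venular cells. In the cells of the capillary gate the 4 lower genes at 1 week were Adm, Ednrb, Nrp1 and Rflnb.

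RNA of basement membrane genes, which serve the matrix beneath capillaries, was mostly higher at 1 week. Of 22 measured basement membrane genes, 9 were 2-fold higher (over all genes 7.21%) and 2, Lamb2 and P4ha1, were lower (8.88%). The median log2 ratio was 0.92. At 2 months 3 were higher (over all genes 4.13%) and 0 were lower (1.47%), with a median of 0.21. Col18a1, the precursor of endostatin, stood at 797 CPM at 1 week, 142 at 2 months and 42.8 in the control, 18.6-fold higher at 1 week (14.9 to 23.5) and 3.31-fold higher at 2 months (2.58 to 4.28). Without the lymphatic-marked cells it stood at 104 CPM at 2 months. Col15a1, a relative of Col18a1, was 4.44-fold higher at 1 week and 2.06-fold higher at 2 months. The main chains of type IV collagen, Col4a1 and Col4a2, were 2.94-fold and 2.89-fold higher at 1 week, with Col4a1 at 3123, 1128 and 1062 CPM at 1 week, at 2 months and in the control. Mesenchymal cells held less Col4a1, at 187, 298 and 405 CPM at 1 week, at 2 months and in the control, an order opposite to that of the members. In venular cells 12 of 23 genes of the list were 2-fold higher and 0 lower at 1 week (over all genes 7.81% and 4.31%). In arterial cells 14 of 22 were higher and 0 lower (over all genes 5.66% and 6.82%). In remaining cells 11 of 22 were higher and 2 lower (over all genes 6.74% and 5.66%).

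**Figure D5:**
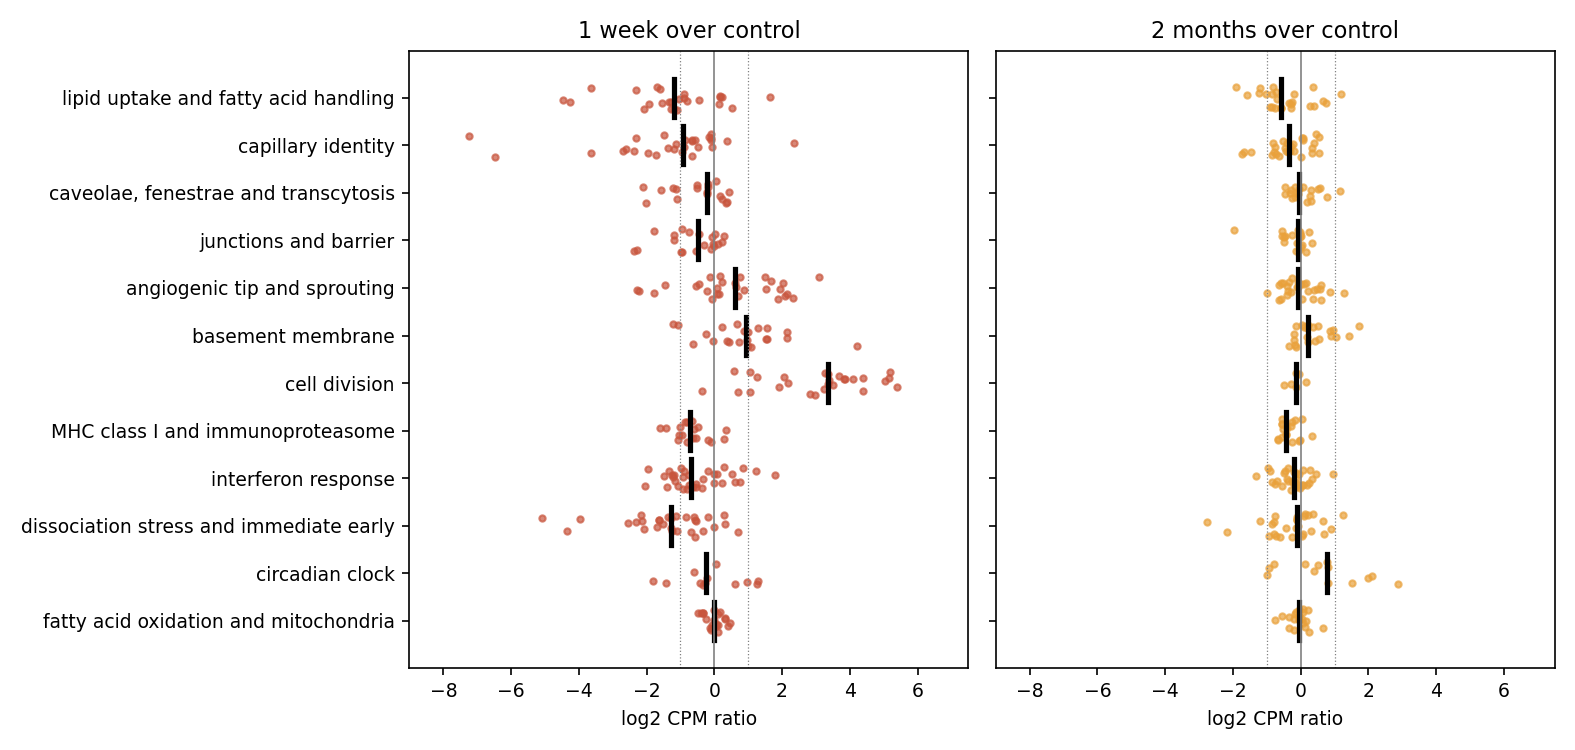
Log2 CPM ratio (horizontal axis) of the measured genes of 12 lists in gated capillary cells, 1 week over control on the left and 2 months over control on the right; points are genes, black bars are list medians and dotted lines mark 2-fold. At 1 week the medians run from -1.27 for dissociation stress genes to 3.35 for cell division genes, and at 2 months from -0.59 for lipid genes to 0.77 for clock genes.

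Cell division genes were higher at 1 week. Of 27 measured genes, 24 were 2-fold higher than in the control (over all genes 7.21%) and 0 were lower (8.88%). The median log2 ratio was 3.35, taken with control sums under 3 UMIs raised to 3. The median was 1.52 with the gate set on cells thinned to 5000 UMIs and 2.57 with every cell given equal weight. Only 6 of the list reached the minimum at 2 months, and 0 of them passed 2-fold. Mki67, a marker of cycling cells, had 298 UMIs in 38 of 226 members at 1 week, 16 UMIs in 3 of 157 at 2 months and 4 UMIs in 3 of 249 in the control. Cdk1, the kinase that drives mitosis, had 176 UMIs at 1 week, 10 at 2 months and 0 in the control. Its ratio at 1 week was 32.9 against a floor of 3 UMIs over the group, with a lower counting limit of 26.5. At equal depth, cells with at least 3 UMIs of the list were 30.8% of members at 1 week (24.7% to 37.5%), 18.5% at 2 months (12.6% to 25.8%) and 21.1% in the control (15.1% to 28.2%). In the mesenchymal gate, which may itself hold dividing cells, they were 15.3%, 5.48% and 3.93%. At 1 week they were 32.3% of remaining and 25.7% of venular cells, against 26.4% and 18.3% in the control. Unthinned shares of members were 66.4%, 58.6% and 37.8% at 1 week, at 2 months and in the control, which follow depth. With the members of at least 3 such UMIs (unthinned) left out, the median of the list at 1 week was -0.55. The list itself chose the cells left out, so this lower value was built into the setting. In remaining endothelial cells 24 of 28 genes were 2-fold higher at 1 week (over all genes 6.74%), with a median of 1.94. In venular cells 19 of 26 were higher (over all genes 7.81%), with a median of 1.71. In arterial cells 2 of 8 were higher (over all genes 5.66%) and 1 was lower (6.82%).

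Among the genes with the largest ratios at 1 week, apart from those of cell division, were enzymes, surface proteins and peptides. Moxd1, a copper-dependent monooxygenase-like protein, had 467 UMIs in 149 of 226 members at 1 week, 11 UMIs in 8 of 157 at 2 months and 2 UMIs in the control, a ratio at 1 week of 131 (36.0 to 1084). Cd276, an immune checkpoint protein also called B7-H3, had 399 UMIs in 135 members at 1 week, 11 UMIs at 2 months and 1 UMI in the control, a ratio of 224 (39.9 to 8857). Akr1b8, an aldo-keto reductase, stood at 99.9 CPM at 1 week, 15.4 at 2 months and 3.17 in the control, 31.5-fold higher at 1 week (14.3 to 86.4). These 3 were spread over many cells, with at most 9.20% of their 1-week UMIs in any 1 member. Other endothelial gates held them too at 1 week. Moxd1 stood at 138 CPM in members, 127 in remaining and 102 in venular cells. Cd276 stood at 118, 116 and 51.9 CPM in that order, and Akr1b8 at 99.9, 104 and 51.0 CPM.

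Other genes of that rank sat in few cells. Chga, a protein of secretory granules, had 169 UMIs at 1 week in 28 members, 0 at 2 months and 0 in the control. Its ratio at 1 week was 31.6 against the same floor of 3 UMIs, with a lower counting limit of 25.4. Outside the capillary gate Chga stood at 42.7 CPM in remaining endothelial cells at 1 week and at 0.0982 CPM in mesenchymal cells. Nts, the neurotensin precursor, had 290 UMIs in 9 members at 1 week, of which 39.3% were in 1 cell, 173 UMIs at 2 months and 0 in the control. Without the lymphatic-marked cells Nts stood at 3.35 CPM at 2 months, against 80.9 CPM with them. The others named by the rule were Hist1h1b, Prc1, Pclaf, Birc5 and Cenpf, which act in DNA replication or mitosis and had 0 to 3 UMIs in the control.

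Genes lowest at 1 week against the control included metabolic enzymes beside Timp4 and Car4. Thrsp, a regulator of lipid synthesis, stood at 6.52 CPM at 1 week, 138 at 2 months and 168 in the control, 25.8-fold lower at 1 week (16.7 to 41.7), while mesenchymal cells of the control held 0.593 CPM. Xdh, the xanthine oxidoreductase, stood at 5.33 CPM at 1 week, 101 at 2 months and 147 in the control, 27.5-fold lower. The flavin monooxygenases Fmo2 and Fmo1 were 64.1-fold and 45.3-fold lower at 1 week. In the control Fmo2 stood at 285 CPM in members and 480 in venular cells, and Fmo1 at 161 and 149 CPM. Slc28a2, a nucleoside transporter, had 3 UMIs at 1 week, 83 at 2 months and 161 in the control, 95.7-fold lower at 1 week (32.2 to 469). Tpm3-rs7, a copy of a tropomyosin gene whose reads may be shared with its parent, was 25.2-fold lower. In the control it stood at 119 CPM in members and 166 in venular cells. Thrsp, Xdh and Slc28a2 were lower in venular cells of the control than in members.

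Penk, Car3 and Cfd were in the same rank and are made in quantity by other cells. Penk, the enkephalin precursor, stood at 1.48 CPM at 1 week, 283 at 2 months and 228 in the control, 154-fold lower at 1 week, but mesenchymal cells of the control held 316 CPM. Its UMIs were in 5 of 226 members at 1 week, 31 of 157 at 2 months and 26 of 249 in the control. Car3, a carbonic anhydrase of adipocytes, had 1 UMI at 1 week, 124 at 2 months and 222 in the control, the last in 85 of 249 members. Cfd, the adipokine adipsin, had 2 UMIs at 1 week, 93 at 2 months and 166 in the control. In the control Car3 stood at 117 CPM in members, 6.40 in venular and 2.22 in mesenchymal cells. Adipoq, a defining adipocyte gene, was at 0 in members at 1 week, in 5 of 157 at 2 months and in 11 of 249 in the control. The part of adipocyte RNA in these values was not tested.

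The genes with the largest ratios at 2 months against the control included Mmrn1, Lyve1, Prox1, Pdpn and Reln, which lymphatic endothelium is known to express. Mmrn1, Reln, Pard6g, Lyve1, Prox1, Nts, Sema3d, Dtx1, Il7, Tmod2, Pdpn and Ptn filled the 12 places, with Mmrn1 in 25 of 157 members at 2 months and 0 members of the control. Mmrn1, Lyve1, Prox1 and Pdpn are also among the genes that mark the lymphatic cells. With those cells left out, the places went to Dbp, Cyp26b1, Nr1d1, Abcc9, Syn3, Lars2, Nr1d2, Htra4, Sema5a, Piezo2, Hlf and Steap4. Cyp26b1, which breaks down retinoic acid, then stood at 99.5 CPM at 2 months and 15.3 in the control, but 71.3% of its UMIs among all members at 2 months were in 1 cell. Abcc9 is a pericyte gene, and Rgs5, a defining pericyte gene, stood at 659 CPM in these members at 2 months, against 289 in the control.

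Clock output genes were higher at 2 months than in the control. Dbp, a clock-driven transcription factor, stood at 14.5 CPM at 1 week, 54.7 at 2 months and 7.40 in the control, 7.40-fold higher at 2 months (4.24 to 13.9). Nr1d1, the clock repressor REV-ERBα, stood at 42.1, 75.3 and 17.4 CPM at 1 week, at 2 months and in the control, 4.32-fold higher at 2 months (2.95 to 6.48). Arntl, the core activator, was 2.68-fold lower at 1 week and 2.01-fold lower at 2 months. Of 13 measured clock genes, 4 were 2-fold higher (over all genes 4.13%) and 1 was lower (1.47%) at 2 months. The median was 0.77. Mesenchymal cells held Dbp at 5.08, 62.0 and 7.01 CPM at 1 week, at 2 months and in the control. Hour of harvest and group cannot be told apart.

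The genes lowest at 2 months included Gdpd3, heat-shock genes and contractile genes. Gdpd3, a lysophospholipase D, had 6 UMIs at 2 months, against 544 in the control, 102-fold lower (46.8 to 280), and 539 UMIs at 1 week. It was also low in venular cells at 2 months, at 1.35 CPM, against 76.1 in the control. Hspa1a, an inducible heat-shock protein with a near-identical copy in Hspa1b, stood at 49.2 CPM at 1 week, 243 at 2 months and 1659 in the control, 33.7-fold and 6.82-fold lower. Acta2, Myh11 and Myl9, contractile genes of smooth muscle, were 4.79-fold, 2.98-fold and 2.92-fold lower at 2 months. In the control 48.9% of the Acta2 UMIs were in 1 member. These 3 genes stood at 376, 89.3 and 205 CPM in members of the control. In the immune gate of the control they stood at 519, 101 and 242 CPM. Free RNA as their source was not tested. Angptl4, Cldn15, Timp4, Car4 and Fabp5, described above, and Spaar, which encodes a small lysosomal polypeptide, completed the 12. Without the lymphatic-marked cells, Plaur, Pxdc1 and Mustn1 took the places of Fabp5, Myh11 and Myl9.

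Genes that respond to dissociation of the tissue were lower at 1 week. Of 30 measured genes of that list, 18 were 2-fold lower (over all genes 8.88%) and 0 were higher (7.21%). The median log2 ratio was -1.27. At 2 months 3 of 29 were lower (over all genes 1.47%) and 1 was higher (4.13%), with a median of -0.11. Fos, an immediate early factor, stood at 747 CPM at 1 week, 3554 at 2 months and 3296 in the control. It was lower at 1 week in mesenchymal cells too, at 1523 CPM, against 4084 in the control. Klf2 and Klf4, factors switched on by blood flow and also by dissociation, were 2.94-fold and 3.44-fold lower at 1 week. Handling of the tissue and the effect of the operation cannot be told apart for these genes.

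Some genes of immune presentation were lower at 1 week. Of 18 measured genes of MHC class I and the immunoproteasome, 5 were 2-fold lower at 1 week (over all genes 8.88%). At 2 months 0 were 2-fold lower (over all genes 1.47%). The medians were -0.73 and -0.42 at 1 week and 2 months, against -0.02 and 0.05 over all genes. The 2-month median was -0.27 without the lymphatic-marked cells and -0.15 in the thinned gate. H2-K1, a classical class I chain, stood at 1047 CPM at 1 week, 1070.5 at 2 months and 1456 in the control. H2-T23, a non-classical chain, was 3.02-fold lower at 1 week and 1.12-fold lower at 2 months. H2 genes have near-identical copies, so reads may be split between them. Of 34 interferon response genes, 10 were 2-fold lower (over all genes 8.88%) and 2, Ifi44 and Zbp1, were higher (7.21%) at 1 week. Their median was -0.69. At 2 months 1 of 32 was lower (over all genes 1.47%) and 0 were higher (4.13%). The median was -0.19 and turned to 0.04 in the thinned gate. Irf1, which switches on class I genes, stood at 146, 382 and 564 CPM at 1 week, at 2 months and in the control. Cxcl9, a T cell chemokine induced by interferon gamma, was 23.1-fold lower at 1 week (17.0 to 32.3) and 2.16-fold lower at 2 months. In venular cells the interferon list had a median of 0.17 at 1 week, with 8 of 34 genes 2-fold higher and 1 lower. Over all genes of venular cells 7.81% were higher and 4.31% lower.

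Between the operated libraries, 942 of 8684 genes were at least 2-fold higher at 2 months than at 1 week (10.8%) and 488 were lower (5.62%). Penk, Steap4, Car3, Fst, Timp4, Cyp26b1, Fmo2 and Cygb had the largest ratios, and Gdpd3, Chga, Slc38a1, Moxd1, Cd276, Mest, Pclaf and Cenpf the smallest. At 2 months mesenchymal cells held more Cygb than members (267 against 82.8 CPM), more Steap4 (96.8 against 78.1) and more Fst (65.2 against 46.8). Penk, Car3, Timp4, Cyp26b1 and Fmo2 were higher in members than in mesenchymal cells. Venular cells held Fmo2 at 354 CPM, against 178 in members. Most Cyp26b1 UMIs at 2 months were in 1 cell, as given above. Timp4 was 45.0-fold higher at 2 months than at 1 week (25.4 to 87.9), which left it 3.35-fold below the control. Moxd1 was 26.9-fold lower at 2 months than at 1 week (14.9 to 54.3), and Mest, an imprinted hydrolase-like gene of growing tissue, 19.4-fold lower (14.3 to 27.1). Mest stood at 382 CPM at 1 week, 19.6 at 2 months and 41.2 in the control.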

How the data were processed

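The deposited matrices hold raw UMI counts per gene and barcode for 3 libraries. Per the file headers the authors' count matrices came from Cell Ranger 5.0.0 or 5.0.1, whereas the submitters' processing notes name version 6.0.1 and build mm10. Depth was 179561680 UMIs in 13986 barcodes at 1 week, 159333121 in 10799 at 2 months and 96782789 in 9003 in the control. Cells were gated on raw UMIs as described, with no doublet caller in the gate: of the members, Scrublet (scanpy 1.11.5) called 4 at 1 week, 1 at 2 months and 2 in the control. UMIs were summed per library over members and given as CPM with exact Poisson intervals, conditional binomial intervals for ratios and Clopper-Pearson intervals for shares, all at 95% and covering counting error only. Genes that reached 50 UMIs over both sums were compared, and a sum under 3 UMIs was raised to 3 in log2 ratios.

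Named genes were the 12 largest and 12 smallest ratios against the control, and 8 and 8 between the operated libraries, among genes with at least 100 UMIs and 20 CPM whose level was at least 0.25 of that in the mesenchymal and the immune gate of the higher library. Ribosomal, mitochondrial, haemoglobin, sex-linked and predicted genes and the genes of the gate were left out. The members, markers and 22 gene lists were chosen with earlier results of these data known. Ccl21a and Aldoa, whose symbols stand on 2 rows each, were not used. Python 3.11.15, numpy 2.4.6, scipy 1.17.1, pandas 2.3.3 and matplotlib 3.10.9 were used, and the interval and ratio code was tested on simulated data. Alternatives changed the doublet, quality and gate settings, the UMI minimum, the fold and the scaling, and left out cells with cell division UMIs and lymphatic-marked or pericyte-marked cells.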

Additional observations from a re-analysis of the deposited data

How the results depend on the processing

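Against the 1-week to control share ratios of 0.668 (of endothelial cells) and 0.597 (of passing cells), a Gpihbp1 and Rbp7 sum of at least 2 gave 0.816 and 0.728, a sum of at least 8 gave 0.551 and 0.492, Gpihbp1 alone 0.938 and 0.837, Rbp7 alone 0.252 and 0.225, mesenchymal UMIs under 0.05% gave 0.829 and 0.327, and gating on thinned cells 0.442 and 0.490. At 2 months the thinned gate gave 0.527 of endothelial cells. Counts of genes past 2-fold depended on the settings as follows, with higher before lower. With no UMI minimum there were 1113 and 2125 for 1 week, 1062 and 489 for 2 months (both over control) and 2544 and 883 for 2 months over 1 week. With at least 200 UMIs they were 249 and 285, 75 and 46, and 327 and 216 in the same order. At a 1.5-fold threshold they were 1418 and 1556, 1025 and 452, and 1939 and 1172. Leaving out the 150, 92 and 94 members (1 week, 2 months, control) with at least 3 unthinned UMIs of the cell division list, a number that follows depth, gave 266 and 444 for 1 week, 128 higher for 2 months, and 370 and 264 at 2 months over 1 week. The thinned gate gave 394 higher at 1 week and 154 higher and 75 lower at 2 months, and Rbp7 alone gave 321 higher at 1 week and 310 lower at 2 months over 1 week. These gates and filters hold fewer cells or other numbers of genes by construction.

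Of 66 list medians, 28 changed sign under 1 or more alternatives, 19 of which were under 0.3 in size as reported. The other 9, and 4 named genes, turned as follows. MHC class II turned to 0.47 at 1 week over control with Rbp7 alone, and at 2 months over 1 week to 0.0451 with Rbp7 alone, 0.17 without Scrublet doublets and 1.24 in the thinned gate, where leukocyte adhesion turned to -0.10. The fibroblast free-RNA list turned to -0.66 at 1 week with Rbp7 alone, and at 2 months to -0.57 without the members with cell division UMIs and -0.0388 without pericyte-marked cells. Without those members, cell division turned to -0.55 at 1 week and, at 2 months over 1 week, to 0.25 (with Pclaf and Cenpf at 0.43), Notch to -0.34 there, and the adipocyte free-RNA list to 0.15 at 2 months over control. Lyve1 and Prox1 turned to -0.92 and -0.33 at 2 months without lymphatic-marked cells, which those genes define. The members left out for cell division UMIs were likewise chosen by that list, which holds Cenpf, so its turns were built into the setting. For the remaining turns the cause was not tested. Of 142 values of counts and shares, 101 stayed within 1.5 times the count or inside the interval of the share ratio. Of 989 list medians, 906 moved by less than 0.3 and did not turn as above, though small ones changed sign, and 776 of 960 named-gene ratios stayed inside their counting interval.

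No paired analysis was possible because each group is 1 library, and for the same reason no replicate was left out. Depth limits genes at a few UMIs: Timp4 and Car4 at 1 week, Cdk1 and Moxd1 in the control. Counting intervals do not cover mice, surgery or handling, and the median depth of members in the control, 5920 UMIs, was under that of the operated libraries.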

Other observations

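Genes of vascular tone and haemostasis moved in both directions at 1 week. Of 26 measured genes, 9 were 2-fold higher (over all genes 7.21%) and 4 were lower (8.88%) than in the control. The median log2 ratio was 0.30, against -0.02 over all genes. The regulators of clotting Tfpi, an inhibitor of the tissue factor pathway, and Plat, an activator of fibrinolysis, were both higher at 1 week. Tfpi stood at 62.8 CPM at 1 week, 36.0 at 2 months and 16.4 in the control, and Plat at 62.2, 16.4 and 22.2 CPM in that order. Gucy1a1, a subunit of the nitric oxide receptor that is also abundant in pericytes, stood at 3.56 CPM at 1 week, 102 at 2 months and 53.9 in the control, and the endothelin receptor Ednrb at 32.3, 148 and 157 CPM at 1 week, at 2 months and in the control. Nos3, the endothelial nitric oxide synthase, stood at 63.4, 65.9 and 53.4 CPM in the same order.

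Few genes of leukocyte adhesion passed 2-fold at 1 week, at shares not far from those over all genes. Over the 22 measured genes of that list 3 were 2-fold higher and 2 were lower at 1 week, against 7.21% and 8.88% of all genes, with a median of -0.08. Sele, which slows rolling leukocytes, stood at 59.3 CPM at 1 week, 5.14 at 2 months and 15.9 in the control, and Vcam1 at 28.7, 10.8 and 11.6 CPM at 1 week, at 2 months and in the control, while Icam1 stood at 218, 273 and 182 CPM. Hey1, a target of Notch, stood at 237 CPM at 1 week, 39.3 at 2 months and 45.5 in the control. It was the only 1 of 14 Notch genes past 2-fold at 1 week, a share near that over all genes (7.21% higher). The median of the Notch list was -0.02. Of 34 endothelial transcription factors, 1 was 2-fold higher (over all genes 7.21%) and 5 were lower (8.88%) at 1 week, with a median of -0.04. Erg, a lineage factor of endothelium, stood at 135 CPM at 1 week, 176 at 2 months and 146 in the control.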
